A study of Rattus norvegicus with 6 samples.

Results

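The Notch pathway genes described here are 10 genes read by symbol from the expression tables of adult rat hippocampal neural stem cells (NSCs): the receptors *Notch1*, *Notch2* and *Notch3*, the ligands *Jag1*, *Dll1* and *Dll3*, and the target factors *Hes1*, *Hes5*, *Hey1* and *Hey2*. They were chosen by gene family, and all 10 were found among the 17315 rows of each table. The cells are HCN, a line of neural stem cells cloned from adult rat hippocampus. They were reverse transfected with a Stealth siRNA control duplex (siControl, 3 samples) or with 1 Stealth duplex against *Derl1* (siDerl1, 3 samples), which encodes the endoplasmic reticulum protein Derlin-1. All 6 samples were grown in proliferation medium and then kept for 2 days in quiescence medium, with BMP4 and basic fibroblast growth factor in both groups, so no proliferating sample is among them.

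Notch signaling passes between touching cells. A Delta or Jagged ligand on one cell leads to cleavage of the Notch receptor on its neighbor, and the freed intracellular domain joins the DNA-binding protein RBPJ to switch on the *Hes* and *Hey* genes. These encode repressors that hold back neuronal differentiation genes, and the pathway is known for keeping NSCs of the adult hippocampus in a resting state.

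RBPJ binds DNA at the core letters TGGGAA, most strongly within GTGGGAA. The RefSeq promoter windows of the rat assembly GRCr8, 250 bases before to 50 after each annotated gene start, hold 9 of the 10 genes, the other being *Hey1*. Stretches with the core are shown for the targets *Hes1*, *Hes5* and *Hey2* and for the ligand *Dll1*, because these 4 windows have 2 copies each. Capitals mark the core on either strand, and each stretch runs 5′ to 3′ on the strand of its gene.
Hes1 (chr11:84213129-84213188, minus strand): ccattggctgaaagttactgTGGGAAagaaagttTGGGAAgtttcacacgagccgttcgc
Hes5 (chr5:170804327-170804504, plus strand): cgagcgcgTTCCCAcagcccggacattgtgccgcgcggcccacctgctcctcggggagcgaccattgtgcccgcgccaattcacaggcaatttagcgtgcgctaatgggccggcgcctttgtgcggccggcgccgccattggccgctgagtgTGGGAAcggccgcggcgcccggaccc
Hey2 (chr1:28640905-28641065, plus strand): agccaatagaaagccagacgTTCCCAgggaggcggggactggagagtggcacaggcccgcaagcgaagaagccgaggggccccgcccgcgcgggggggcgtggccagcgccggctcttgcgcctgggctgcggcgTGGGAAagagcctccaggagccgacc
Dll1 (chr1:64993331-64993479, minus strand): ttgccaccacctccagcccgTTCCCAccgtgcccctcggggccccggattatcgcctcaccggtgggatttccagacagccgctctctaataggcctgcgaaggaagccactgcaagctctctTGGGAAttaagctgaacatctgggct

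The core was present in 5 of the 9 windows and at least 2 copies were present in 4, against 25.7% and 3.85% of all 33469 windows of this length. GTGGGAA, which contains the core, was present in 4 of the 9 windows and in 6.29% of all windows. *Hes5* alone of the 9 had 2 copies of it, as did 0.236% of all windows. The N box CACNAG, a site bound by HES repressors, was present in the windows of *Hes1*, *Notch1* and *Notch3*, 3 of 9 against 43.1% of all windows. These are letter matches on either strand, not measured binding.

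**Figure D1:**
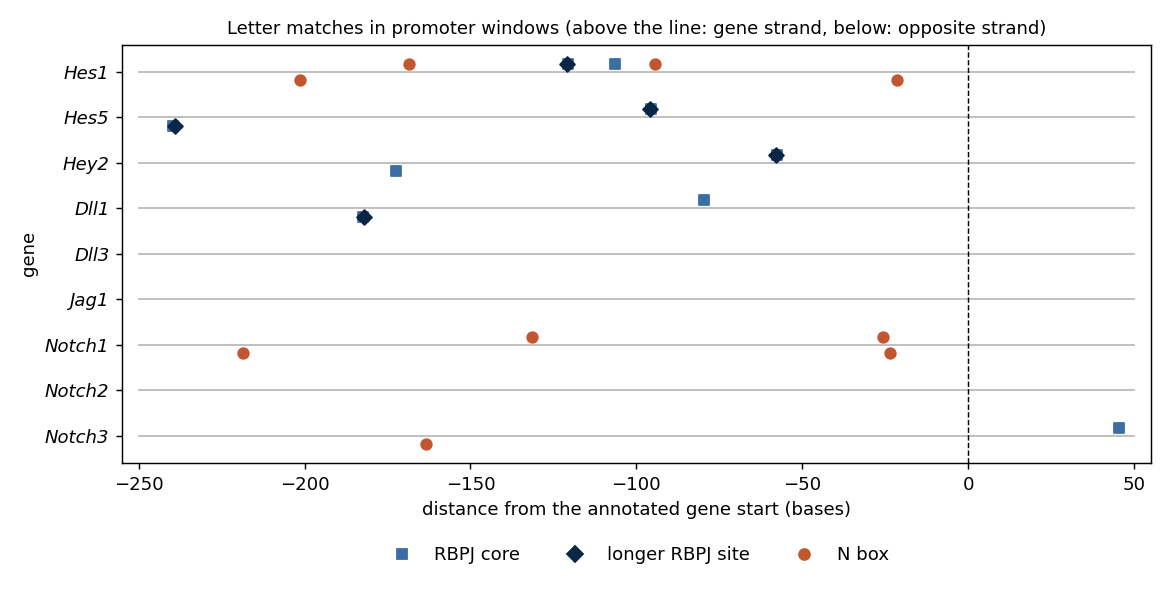
Letter matches in the promoter windows of 9 genes, with the distance from the annotated gene start in bases on the x axis; squares are the RBPJ core, diamonds the longer RBPJ site and circles the N box, above the line on the strand of the gene and below it on the opposite strand. The 2 cores of *Hes1* begin 123 and 109 bases before the start on the same strand, while those of *Hes5*, *Hey2* and *Dll1* lie on opposite strands.

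The authors gave expression as TPM, a share of all transcripts in a sample that is corrected for transcript length, so levels can be compared between genes. Read numbers cannot be taken from TPM, so sequencing depth is unknown. The samples held 11641 to 11808 genes above 0 TPM. The targeted gene *Derl1* was at 122, 132 and 128 TPM in siControl and at 44.9, 70.8 and 74.0 TPM in siDerl1 samples 1, 2 and 3. Markers of NSCs were abundant, with *Sox2* between 445 and 565 TPM and *Nes* between 99.4 and 137 TPM. The summed TPM of 5 microglia, 5 endothelial and 5 mural cell markers was at most 0.52, 0.73 and 2.1 in any sample. The lowest values of the oligodendrocyte genes *Mbp* and *Cnp* were 245 and 565 TPM, while *Mog* was listed at 0 in all 6 samples. Neuronal markers summed to between 116 and 140 TPM, mostly *Tubb3* and *Syt1*. In such bulk RNA, fewer cells with a transcript and less of it per cell cannot be told apart.

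The sample numbers 1, 2 and 3 are used alike in both groups, and both samples numbered 1 stood apart: the first principal component, with 55.7% of the variance, set them away from the other 4. What the number stands for was not given in the sources used here. Nor was it stated whether the samples came from separate cultures, so p-values measure the spread between these samples only, which may be technical.

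By mean TPM over the 6 samples the order was *Hey1* (108), *Notch1* (107), *Notch2* (23.0), *Hes5* (18.3), *Hes1* (17.95), *Jag1* (17.3), *Dll1* (5.51), *Notch3* (2.22), *Dll3* (1.41) and *Hey2* (0.0867). *Notch1* lay above *Notch2* in 6 of 6 samples with no overlap of their ranges, and so did *Jag1* above *Dll1*, *Dll1* above *Notch3* and *Dll3* above *Hey2*. The other neighbors in this order had overlapping ranges. *Hey1* was above *Notch1* in only 3 of 6 samples, and *Notch2*, *Hes5* and *Hes1* each exceeded the next gene in 3 of 6.

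**Figure D2:**
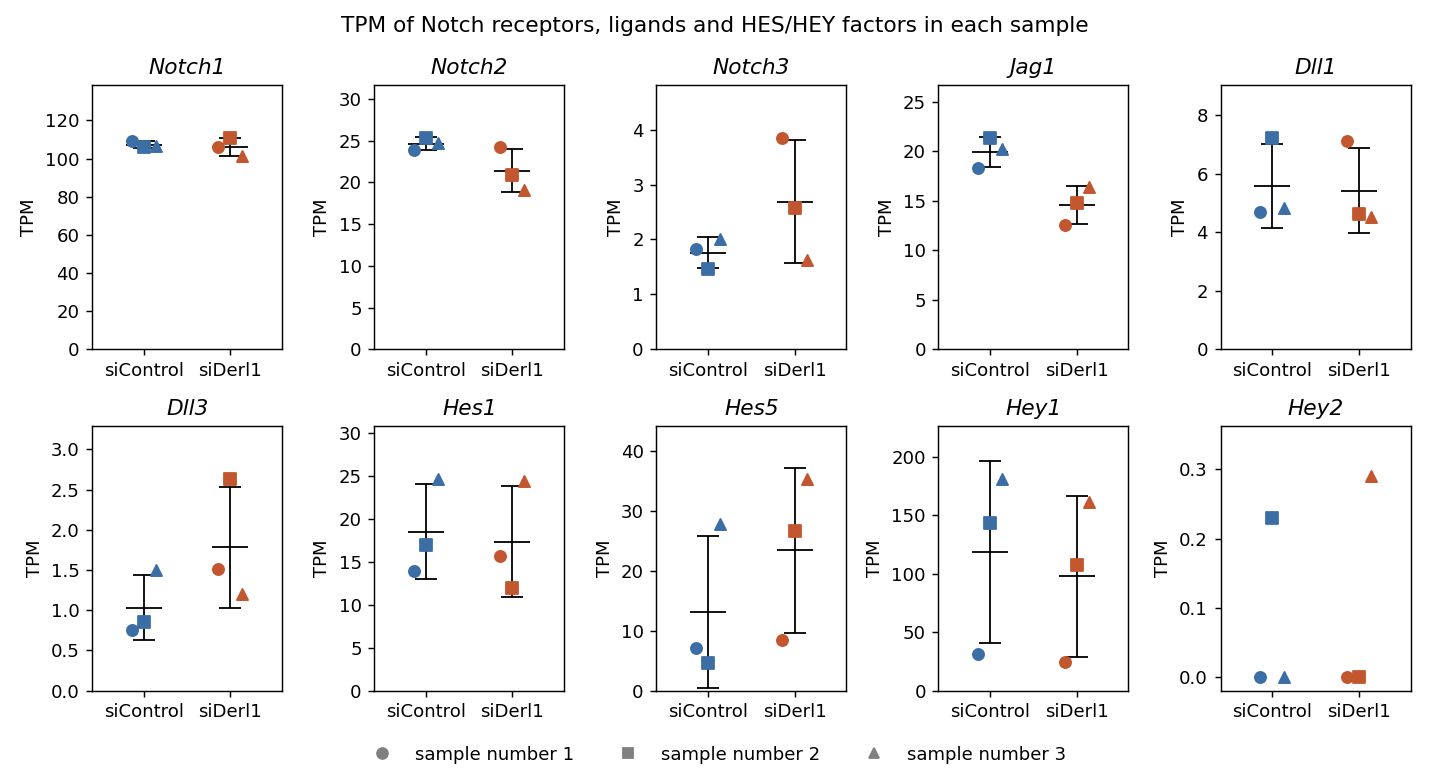
TPM (y axis) of the 10 genes in the siControl and siDerl1 samples (x axis), where symbols give the sample number and the bars the mean and SD of 3 samples (not drawn for *Hey2*, which was at or near 0). *Jag1* is the one gene whose groups do not overlap, and for *Hey1* both samples numbered 1 lie far below the other 4.

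The first question was whether the knockdown of *Derl1* changed these genes. The groups were compared with limma on log2(TPM + 1) for the 10331 genes whose mean TPM reached 1, among them 9 of the 10. *Hey2* did not, at 0, 0.23 and 0 TPM in siControl and at 0, 0 and 0.29 TPM in siDerl1 samples. No gene of the 9 had an adjusted p under 0.05, and the share of all genes that did was 0%. *Derl1* itself was not called either (log2 difference −1.03, adjusted p = 0.497), although its ratio of means was 0.498 and its groups did not overlap. With the sample number as a block its adjusted p was 0.00884, and that call was lost when low genes were kept (0.104) or the intensity trend was dropped (0.229). At an unadjusted p under 0.05 there was 1 of the 9, *Jag1*, against 6.70% of all genes.

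*Jag1* (NM_019147) encodes Jagged-1, the most abundant Notch ligand measured in these cells. It was at 18.3, 21.4 and 20.2 TPM in siControl samples 1, 2 and 3 and at 12.6, 14.8 and 16.4 TPM in siDerl1 samples 1, 2 and 3. The highest siDerl1 value was thus under the lowest siControl value. The means were 19.98 ± 1.53 and 14.6 ± 1.91 TPM (SD, n = 3 each), a ratio of 0.731 (p = 0.1 in a two-sided exact permutation test, which with 3 samples a group cannot go lower). The log2 difference was −0.43 (standard error 0.13, 95% interval −0.73 to −0.13), with an adjusted p of 0.704 from limma. With the sample number as a block the adjusted p was 0.127. Of the 5 NSC and 5 neuronal markers, *Nes*, *Dcx* and *Syt1* were also lower with siDerl1 without overlap and *Tubb3* was higher without overlap. *Nes* was at 137, 125 and 113 TPM in siControl and at 111, 101 and 99.4 TPM in siDerl1 samples, and *Tubb3* at 58.8, 74.9 and 70.4 TPM and at 83.2, 76.3 and 76.3 TPM. Their part in the *Jag1* difference was not tested. Its promoter window held neither the RBPJ core nor the N box.

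*Jag1* passed the limits used in the study, a fold change above 1.5 or below 0.8 with an unadjusted p under 0.05. Here they were applied to the limma fit on log2(TPM + 1), while the study used edgeR. *Jag1* was 1 of 9 genes past the lower limit, against 1.37% of all genes, and 0 of 9 passed the upper limit, against 0.532%. It was also 1 of 9 genes whose groups did not overlap with siDerl1 lower, against 8.52% of all genes, and 0 of 9 had siDerl1 higher without overlap, against 5.09%. All of these counts rest on the same gene. The median log2 difference was −0.04 over the 9 genes and −0.02 over all genes tested.

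The Delta ligands were lower in abundance. *Dll1*, a ligand that activates receptors on neighboring cells, was at 4.70, 7.23 and 4.83 TPM in siControl and at 7.11, 4.63 and 4.53 TPM in siDerl1 samples. Each group thus had 1 higher sample near 7 TPM, and the groups overlapped (log2 difference −0.04, 95% interval −0.58 to 0.50). *Dll3*, a divergent ligand that acts mostly inside the cell that makes it, was at 0.75, 0.85 and 1.5 TPM and at 1.51, 2.63 and 1.20 TPM. Its ratio of means was 1.72, with overlapping groups and an adjusted p of 0.817 from limma. The summed TPM of the 3 ligands was 26.6 ± 2.84 in siControl and 21.8 ± 0.506 in siDerl1 NSCs (SD, n = 3 each), and *Jag1* made up between 59.4% and 77.1% of it. Its share was smallest, at 59.4%, in siDerl1 sample 1, where *Dll1* held 33.5%.

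Of the receptors, *Notch1* differed least between groups. *Notch1* was at 109, 106 and 107 TPM in siControl and at 106, 111 and 101 TPM in siDerl1 samples, the smallest spread of the 10 genes relative to its level. Its log2 difference was −0.02 (standard error 0.06), and the 95% interval ran from 0.894-fold to 1.09-fold. *Notch2* was at 23.8, 25.3 and 24.7 TPM in siControl and at 24.3, 20.8 and 19.1 TPM in siDerl1 samples. The siDerl1 samples 2 and 3 lay below every siControl sample and sample 1 did not (log2 difference −0.20, standard error 0.11, adjusted p = 0.769 from limma). *Notch3*, a receptor best known from mural cells of vessels, was at 1.82, 1.46 and 2.01 TPM and at 3.85, 2.58 and 1.62 TPM. Its ratio of means was 1.52 with overlapping groups (adjusted p = 0.835 from limma). The mural markers summed to between 0.93 and 1.23 TPM in siControl and between 1.56 and 2.1 TPM in siDerl1 samples, with *Rgs5* at 0 in all 6. Of these markers only *Pdgfrb* was higher without overlap, at 0.26, 0.45 and 0.47 TPM in siControl and at 1.34, 0.97 and 1.44 TPM in siDerl1 samples. *Cspg4* was lower without overlap, at 0.34, 0.17 and 0.21 TPM and at 0.06, 0.15 and 0.16 TPM. Whether they have a part in the *Notch3* values was not tested. *Notch1* made up between 79.1% and 83.0% of the summed receptor TPM.

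The target factors varied more within each group than between the groups. *Hes1*, an oscillating repressor of proneural genes, was at 13.9, 17.0 and 24.7 TPM in siControl and at 15.7, 11.9 and 24.5 TPM in siDerl1 samples. The log2 difference was −0.11 with a 95% interval from 0.582-fold to 1.48-fold. *Hes5*, the other main HES effector of Notch in NSCs, was at 7.19, 4.62 and 27.8 TPM in siControl and at 8.40, 26.6 and 35.4 TPM in siDerl1 samples. *Hes5* was higher with siDerl1 in each pair of the same number, by 0.20, 2.30 and 0.34 on the log2 scale, most of it in pair 2, where the values were 4.62 and 26.6 TPM. The mean log2 difference was 0.94 (standard error 0.70, adjusted p = 0.844 from limma). When 1 sample was left out it ran from 0.46 without siControl sample 2 to 1.64 without siControl sample 3. With the block *Hes5* had an unadjusted p of 0.0216 and an adjusted p of 0.231 from limma. It then also passed the fold and p limits, which made 2 of 9 genes. The share of all genes past both limits was not counted for that fit. An unadjusted p under 0.05 was reached there by 1624 of 10331 genes, and by 692 without the block. *Hes5* did not pass the limits with the block when low genes were kept or the intensity trend was dropped, where *Jag1* alone did.

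*Hey1*, a HES-related repressor that also responds to BMP signaling, was at 30.9, 144 and 181 TPM in siControl and at 24.5, 107 and 161 TPM in siDerl1 samples. The groups overlapped across nearly the whole range, while siDerl1 was lower in each pair, by 0.32, 0.42 and 0.16 on the log2 scale. The log2 difference of −0.30 had a standard error of 0.84 without the block and of 0.07 with it. The adjusted p from limma was 0.963 without the block and 0.0984 with it. In blocked fits that had no intensity trend or kept low genes the adjusted p from limma was 0.295 and 0.209. The block and the pairs rest on the sample number, and numbers 2 and 3 were not clearly told apart. *Hey1* and *Jag1* were the 2 of 9 genes lower with siDerl1 in all 3 pairs, against 22.1% of all genes, and *Hes5* was the 1 higher in all 3, against 15.8%. With the block, 0 of the 9 genes had an adjusted p under 0.05, against 0.552% of all genes. That share rests on 57 genes, which became 0 in a blocked fit that had no intensity trend and 2 when low genes were kept.

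**Figure D3:**
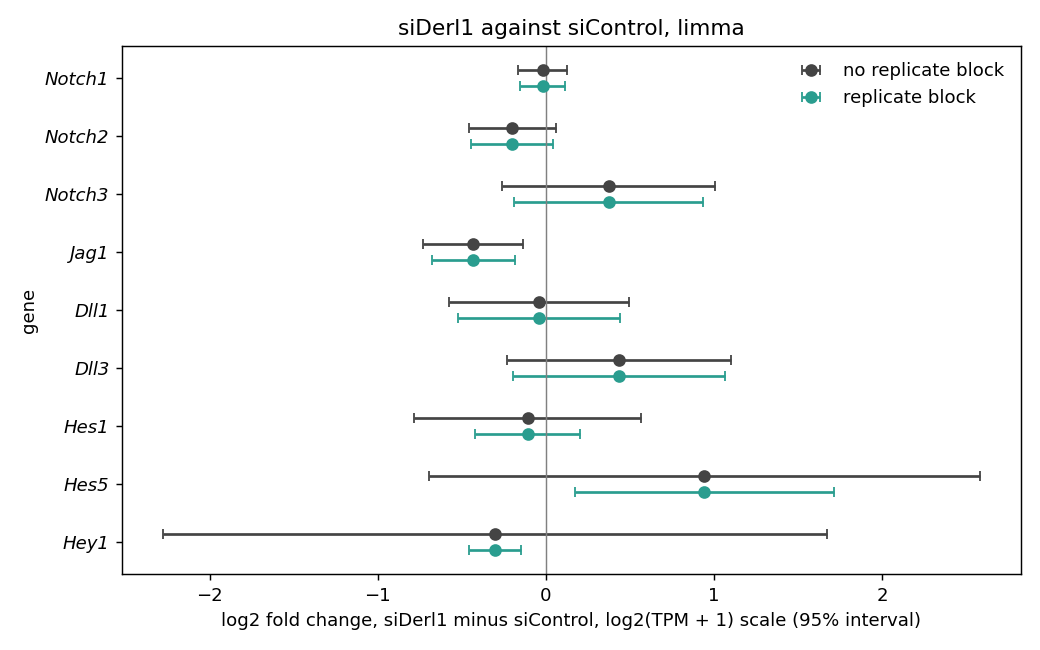
log2 difference between siDerl1 and siControl NSCs (x axis, log2(TPM + 1) scale) with its 95% interval for the 9 genes tested (y axis), without and with the sample number as a block. The interval of *Hey1* narrows from between −2.28 and 1.68 to between −0.46 and −0.15, and that of *Jag1* lies below 0 in both fits.

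The second question was how these genes varied with the sample number, taken over both siRNA groups. In a limma fit with the number and the siRNA group, an F test of the number called 3 of the 9 genes at an adjusted p under 0.05, against 10.6% of all genes. The 3 were *Hes1*, *Hes5* and *Hey1*, all of them target factors, and no receptor or ligand was called, at adjusted p values between 0.424 and 0.816.

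*Hey1* differed most. The values of 30.9 and 24.5 TPM in both samples numbered 1 lay below the 107 to 181 TPM of the other 4, a ratio of means of 5.35. The log2 difference of number 1 from numbers 2 and 3 was −2.36 (standard error 0.07, adjusted p = 5.3e-07 for the number from limma's F test), which ranked 41 by size among the 10331 genes. It was 1 of 9 genes with both number 1 samples below the other 4, against 17.0% of all genes, and 0 of 9 had them above, against 15.7%. With any 1 sample left out the *Hey1* difference stayed between −2.41 and −2.31. Of the 5 NSC markers, *Vim* and *Slc1a3* were also lowest in both samples numbered 1. *Slc1a3* was at 52.1 and 47.9 TPM against 69.7 to 83.5 TPM in the other 4. *Sox2* and *Nes* went the other way, each being highest in sample 1 within each siRNA group, and *Hopx* did neither. The part of these markers in the *Hey1* difference was not tested.

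*Hes5* was at 7.19 and 8.40 TPM in the samples numbered 1 and reached 27.8 and 35.4 TPM in those numbered 3. The samples numbered 2 disagreed, at 4.62 and 26.6 TPM, so the number 1 samples did not stand apart (log2 difference −1.19, standard error 0.36, adjusted p = 0.0420 from limma's F test). With 1 sample left out this difference ran from −1.75 without siControl sample 1 to −0.64 without siDerl1 sample 1. *Hes1* was highest in both samples numbered 3, at 24.7 and 24.5 TPM, with 11.9 to 17.0 TPM in the other 4 (adjusted p = 0.0335 from limma's F test). The calls of *Hes1* and *Hes5* were lost when low genes were kept (0.116 and 0.161), in a fit that had no intensity trend (0.141 and 0.233), without siControl sample 3 (0.134 and 0.266) and without siDerl1 sample 3 (0.266 and 0.0867). That of *Hes5* was also lost with median-of-ratios scaling, at 0.0604. The call of *Hey1* held in each of these fits.

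The composition of the target factors differed with the number as well. The summed TPM of *Hes1*, *Hes5*, *Hey1* and *Hey2* was 52.0 and 48.6 in the samples numbered 1, 165 and 146 in those numbered 2, and 233 and 222 in those numbered 3. *Hey1* made up 59.4% and 50.4% of that sum in the number 1 samples and between 72.9% and 86.8% in the other 4. The receptor sum lay between 122 and 135 TPM in all 6 samples, so the target factors spanned a far wider range than the receptors did.

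**Figure D4:**
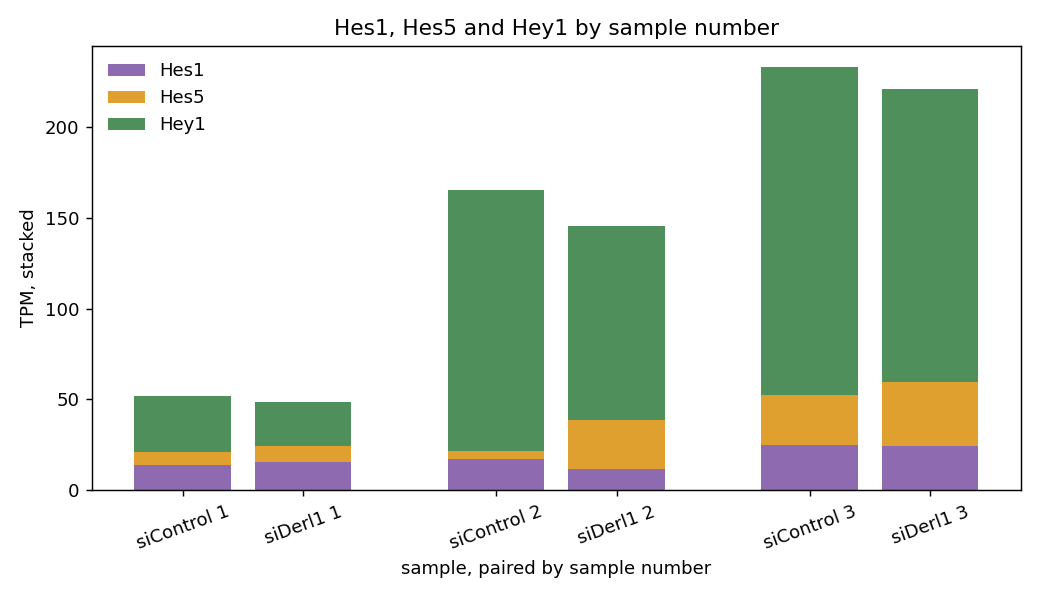
Stacked TPM (y axis) of *Hes1*, *Hes5* and *Hey1* in each sample (x axis), ordered by sample number with the siControl and siDerl1 sample of each number side by side. The stacks of number 1 are near 50 TPM and those of number 3 above 220 TPM, and the widest gap within a pair is that of number 2, at 165 and 146 TPM.

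Of 60 other genes of the pathway, listed by role, 51 were found in the tables and 39 reached a mean TPM of 1. In siDerl1 against siControl NSCs 0 of the 39 had an adjusted p under 0.05 from limma, with or without the block. At an unadjusted p under 0.05 there were 0 higher and 5 lower of the 39, beside 6.70% of all genes in either direction. The median log2 difference of the 39 was −0.06. The 5 were *Ncstn*, which encodes a subunit of the gamma-secretase that cuts Notch, *Numb*, an adaptor that holds back Notch signaling, *Dtx4*, a ubiquitin ligase of the Deltex family, *Maml1*, the coactivator of the RBPJ complex, and *Tle4*, a corepressor that HES proteins recruit. *Ncstn* was at 104, 101 and 107 TPM in siControl and at 84.3, 93.1 and 97.3 TPM in siDerl1 samples. *Numb* was at 24.0, 24.1 and 23.0 TPM and at 18.5, 21.4 and 19.4 TPM.

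Of the other 3, *Dtx4* had the largest difference on the log2 scale and the lowest level, from 1.48, 2.17 and 2.39 TPM to 0.87, 1.12 and 1.11 TPM. *Maml1* was at 23.4, 25.9 and 25.2 TPM and at 20.4, 20.7 and 22.0 TPM. *Tle4* was at 91.3, 82.9 and 79.3 TPM and at 77.2, 68.5 and 66.8 TPM. Groups that did not overlap with siDerl1 lower were found for 6 of the 39 genes, these 5 and the gamma-secretase gene *Aph1a*, beside 8.52% of all genes. The adjusted p values of the 5 from limma lay between 0.704 and 0.733.

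By role, 2 of the 9 cleavage genes were higher in siDerl1 NSCs in mean log2 value and 7 lower, and 4 of the 10 endocytosis and turnover genes and 4 of the 10 genes of the nuclear complex were higher. The glycosylation genes were split, 2 and 2. The most abundant genes of these roles had overlapping groups: *Psenen*, another gamma-secretase subunit, at 232 ± 10.1 and 234 ± 5.60 TPM in siControl and siDerl1 NSCs (SD, n = 3 each), *Poglut1*, which glycosylates Notch, at 67.8 ± 7.77 and 64.3 ± 4.47 TPM, *Dtx3*, of the Deltex family, at 145 ± 2.61 and 151 ± 7.72 TPM, and *Snw1*, a cofactor of the complex, at 110 ± 6.97 and 101 ± 4.46 TPM.

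The sample number was called for 8 of the 39 genes at an adjusted p under 0.05, against the same 10.6% of all genes. The genes named here were chosen because of their values. *Sox9*, a transcription factor of NSCs and astrocytes, was at 7.50 and 9.42 TPM in the samples numbered 1 and between 34.7 and 38.3 TPM in the other 4 (log2 difference −2.003, adjusted p = 3.3e-05 from limma's F test). *Fabp7*, a lipid-binding protein of radial glia, went the other way, at 196 and 220 TPM against 97.3 to 132 TPM (0.78, adjusted p = 0.00284). The corepressor genes of the Groucho family were divided: *Tle1* was higher in the number 1 samples by 1.06, while *Tle2* and *Tle3* were lower by 0.46 and 0.57. *Adam10*, the protease of the first ligand-dependent cut, was at 112 and 101 TPM in number 1 and between 133 and 178 TPM in the others. *Furin*, which processes the receptor on its way to the surface, was higher in number 1 by 0.35.

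**Figure D5:**
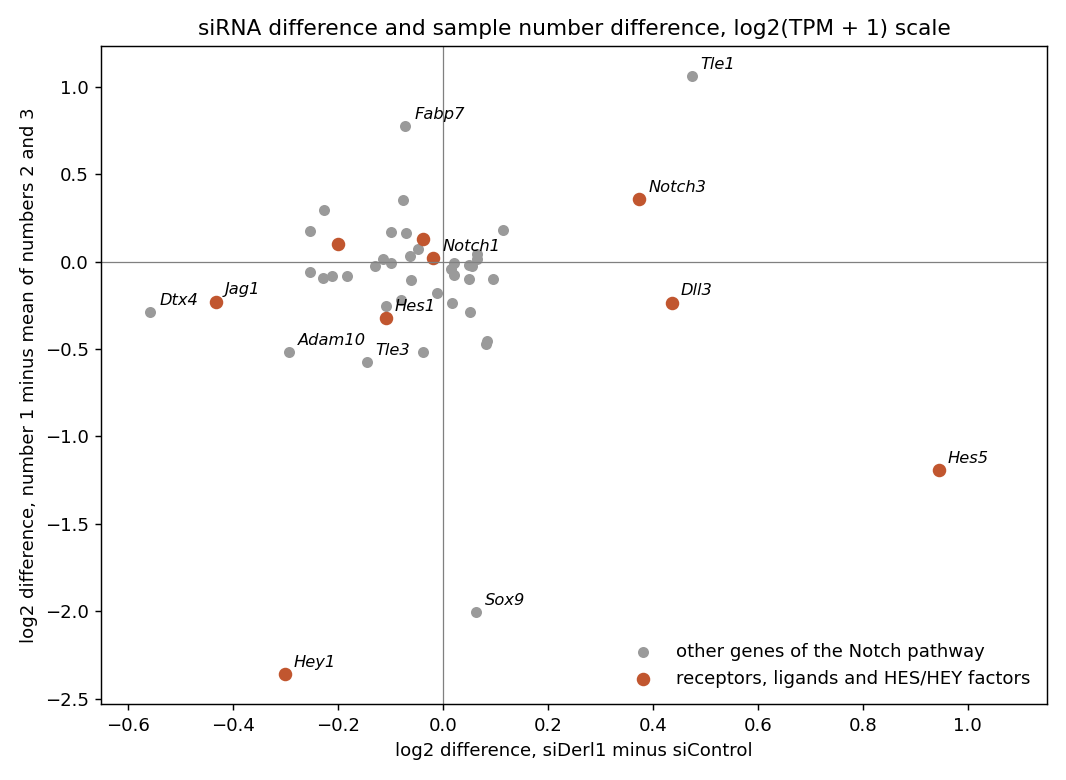
log2 difference between siDerl1 and siControl NSCs (x axis) and between sample number 1 and the mean of numbers 2 and 3 (y axis) for the 9 genes tested and the 39 other pathway genes. *Hey1* and *Sox9* lie at −2.36 and −2.003 on the number axis, the lowest points, and *Jag1* and *Dtx4* lie to the left.

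Genes with the most similar pattern over the 6 samples were ranked by Pearson's r of log2(TPM + 1) among all genes tested, as a description. For *Hes1* they were *Swsap1*, *Camta1* and *Pop5* (r = 0.993, 0.992 and 0.989), for *Hes5* *Lbhd1*, *Fam57b* and *Tspyl4* (0.990, 0.989 and 0.987), and for *Notch1* *Zdhhc18*, *Lsm1* and *Atp13a2* (0.993, 0.985 and 0.971). *Pop5* for instance was at 27.1, 30.7 and 37.0 TPM in siControl and at 27.6, 23.5 and 36.1 TPM in siDerl1 samples, with the same rank order as *Hes1*. These 6 points share groups and sample numbers, and none of the listed genes belongs to the pathway list.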

How the data were processed

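RNA-seq of 6 samples was used. Per the labels and methods, directional poly(A) libraries were read on a HiSeq X (Illumina). The submitters' processing notes name Trimmomatic 0.39, STAR 2.7.3a, RSEM 1.3.2, edgeR 3.28.1 and the genome build rn6. The values the authors deposited are TPM, rounded to 2 decimals, summing to 1000000 per sample. They hold no depth, so no counting error can be given, and RSEM may split reads between paralogs. edgeR was not run here.

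Groups and sample numbers came from the sample titles. The genes, lists and tests were chosen with earlier results of these data known. limma (version 3.58.1, R 4.3.3) was fitted to log2(TPM + 1) over genes whose mean TPM reached 1, with an intensity trend and Benjamini-Hochberg adjustment over all of them, without a block. Fold changes on this scale understate those of low genes. The fits were also run on simulated data with changes larger than that of *Jag1*. Those runs do not show whether a change as small as that of *Jag1* would be called. The sample number was tested by an F test with the siRNA group in the fit. Deviations from group means correlated at 0.70, 0.35 and 0.51 between samples of the same number across genes, so the numbers were treated as pairs in an alternative fit. Numbers 2 and 3 were not clearly told apart, since siControl 2 with siDerl1 3 gave 0.34 and siControl 3 with siDerl1 2 gave 0.25. No 2 samples held the same values. The other alternatives were a pseudocount of 0.1, no filter, a minimum mean TPM of 5, scaling by median of ratios, no trend, and each sample left out.

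By rule the genes named are the 10, *Derl1*, other pathway genes with an unadjusted p under 0.05, the most abundant gene of each role, and the 3 genes most like *Hes1*, *Hes5* and *Notch1*. Some results under this rule are not reported here. Pathway genes called by sample number, those in the closing section, *Aph1a* and the markers were named outside it, after their values were seen. Promoter windows are RefSeq GRCr8 and were matched by symbol. No read position was used.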

Additional observations from a re-analysis of the deposited data

How the results depend on the processing

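The count of the 9 genes with an adjusted p under 0.05 between siRNA groups was 0 in each planned fit, and so was that of the other pathway genes. With both number 1 samples left out, chosen after seeing the data, both counts were 0 without the block. With the replicate block on those 4 samples both were 2 (*Hes5* and *Hey1* among the 9), but that fit has 1 residual degree of freedom and called 506 genes in all. The count past the fold and p limits was 1, or 2 with the replicate block with all samples or without number 1, and 1 to 2 with 1 sample left out (2 without siControl sample 3 or siDerl1 sample 1). Wherever it was 2 the genes were *Jag1* and *Hes5*. The share of all genes past both limits was not counted in these fits. Genes with an unadjusted p under 0.05 from limma ranged from 427 without siControl sample 2 to 1855 with the block and without number 1. The cause of the changes in the count was not tested. No value under a minimum mean TPM of 5 exists for *Notch3* and *Dll3*, which it removes.

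The count called by sample number was 3, and 1 without a filter on low values or without a trend, 2 with median-of-ratios scaling, and 1 to 3 with 1 sample left out. Some fold changes changed sign when 1 sample was left out. They ran over −0.050 to 0.015 for *Notch1*, −0.37 to 0.12 for *Hes1*, −1.08 to 0.49 for *Hey1* and −0.22 to 0.13 for *Dll1*. Number differences also changed sign, over −0.0098 to 0.053 for *Notch1*, −0.068 to 0.27 for *Notch2* and −0.28 to 0.54 for *Dll1*. The *Hey1* fold change reversed without siControl sample 2 or 3 or siDerl1 sample 1. Those fits had no block, and leaving out 1 sample left the sample numbers unequal between the groups. In each pair of the same number *Hey1* was lower with siDerl1. With the same sign throughout, the fold change ran from 0.15 to 0.60 for *Notch3* (lowest without siDerl1 sample 1). For *Dll3* it ran from 0.23 to 0.59 (lowest without siDerl1 sample 2). For *Notch2* it ran from −0.29 without siDerl1 sample 1 to −0.13 without siDerl1 sample 3. The replicate block changed no other call of these genes. Depth is unknown, so precision at the low TPM of *Dll3*, *Notch3* and *Hey2* cannot be judged.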

Other observations

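Several pathway genes were close to absent and were not tested. The delta-like gene *Dlk1* was at 0.85, 0.62 and 0.46 TPM in siControl samples and at 0, 0 and 0.16 TPM in siDerl1 samples, with no overlap. The study listed *Dlk1* among its genes reduced in siDerl1 NSCs. *Dlk2*, the most abundant of the other receptor and ligand genes, was at 0.15, 0.67 and 0.98 TPM and at 1.07, 0.56 and 0.51 TPM. *Notch4* stayed between 0.34 and 0.78 TPM and *Dll4* at or under 0.13 TPM. Of the target factors, *Hes3* and *Heyl* were listed at 0 in all 6 samples, and *Hes2* in 5 of them.

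*Nrarp*, a feedback inhibitor that Notch switches on, was at 8.50, 7.11 and 8.77 TPM in siControl and at 7.58, 7.87 and 7.70 TPM in siDerl1 samples. Its number 1 samples lay within the range of the others. *Hes6*, a HES-related factor, was at 13.6, 18.9 and 19.0 TPM in siControl and at 14.2, 20.5 and 20.2 TPM in siDerl1 samples, with both number 1 samples below the other 4 (adjusted p = 0.0560 for the number from limma's F test). Both genes were chosen after their values were seen.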
